A study of Mus musculus with 4 samples.

Results

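The cyclins, the cyclin-dependent kinases (CDKs), the CDK inhibitors, the CDC25 phosphatases, the small CDK subunits Cks1b and Cks2 and the kinase Wee1 form a module of 50 genes, read by 102 probes, of 27627 genes and 41174 probes on the array. The rule that picked them uses only the gene name that the scanner files give each probe, and no measured value. It was set, however, with earlier results of these data known. RNA of immature granulocytes, the neutrophil precursors sorted from bone marrow, was hybridised to 1-colour Agilent arrays, 2 from wild type (WT) and 2 from miR-223 KO mice, all male and of the strain C57BL/6. The KO mice lack miR-223, a microRNA abundant in myeloid cells, and the comparison asks which transcripts differ without it. The labels do not give the age of the mice, the markers of the sort, or whether the replicates came from different animals, so the p-values reflect only how far these samples lie apart, and that spread may be technical.

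Cyclins are proteins made and destroyed at set stages of the cell cycle, and each activates the CDK it binds. D-type cyclins with Cdk4 and Cdk6, and then E-type cyclins with Cdk2, drive cells out of G1 into S phase, while A- and B-type cyclins with Cdk2 and Cdk1 carry them through S phase and mitosis. CDC25 phosphatases remove the inhibitory phosphates that Wee1 places on CDKs, and the Ink4 and Cip/Kip proteins hold CDKs inactive. A separate branch of the family, among them Cdk7, Cdk8, Cdk9 and Cdk12, acts on RNA polymerase II, and Cdk7 also activates the CDKs of cell division. In the neutrophil lineage division ends before the cells mature, so precursors are the stage at which this machinery is expressed.

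The microRNA that the KO mice lack is shown because its absence defines the KO group. The mature sequence comes from RefSeq (GRCm38.p6, chrX:96242884-96242905, plus strand), with the seed, bases 2 to 8, in capitals:
miR-223-3p: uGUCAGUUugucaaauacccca
A 6-base match to the seed, ACTGAC in the transcript, was found in 2 of the 102 probes, those of Cdkn2c and Ccnl1, and the Ccnl1 match extended to the 7 bases AACTGAC. Over all 41174 probes, 1.411% held the 6-base match and 0.372% the 7-base match. A probe covers 60 bases at most of a transcript, so absence of a match says only that these letters are not in that stretch.

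Values below are log2 processed signals relative to the 75th percentile of the same array, so that 0 is the level of that percentile. Probes had to be well above background on 2 or more arrays, each gene was read from the brightest of them, and differences are KO minus WT with the standard error (SE) of the limma fit. Of the 50 genes, 46 were tested, and all 46 were well above background on all 4 arrays. The other 4, Ccna1, Ccnb3, Cdkn2a and Cdkn2b, were not well above background on any array and were not tested. The brightest probes of the genes described first lie, by the mm9 coordinates in the files, at chr7:38882937-38882960 for Ccne1 (minus strand), chr17:47736267-47736326 for Ccnd3 (plus strand), chr17:24360797-24360856 for Ccnf (minus strand) and chr10:68805423-68807832 for Cdk1 (minus strand). Which exon or untranslated region a probe lies in was not analysed here. Levels of different probes are not compared as amounts of transcript.

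Transcripts of the dividing cell were mostly lower in KO than in WT, across G1, S phase and mitosis, while the transcriptional branch of the family was centred near 0. The medians of the 3 cell-cycle groups lay below that of all genes in 15 of 16 alternatives. In the other, normexp background correction over all spots, they lay above it by 0.0857 to 0.114. Alternatives that change only the variance model or add a replicate block refit the same values, so these medians could not move under them. The median difference was -0.40 over the 8 tested genes of G1 and G1/S, -0.39 over the 12 of S, G2 and mitosis and -0.40 over the 5 CDK inhibitors. It was -0.03 over the 13 transcriptional genes and 0.09 over the 8 others, against -0.02 over all 16973 genes tested. Of the 46 genes 33 lay below 0 and 13 above it. Both KO arrays lay below both WT arrays in 25 and above both in 9, which is 54.3% and 19.6% of the 46, against 30.5% and 28% of all genes (58.6% in either direction). The gap between replicate arrays had a median of 0.104 between the WT arrays and 0.0892 between the KO arrays over the 46 genes, against a median absolute difference between genotypes of 0.258. Over all genes the same medians were 0.124, 0.135 and 0.199.

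No single gene passed the test. With limma and Benjamini-Hochberg adjustment over all genes, 0 of the 46 had an adjusted p under 0.05, as had 0% of all genes, and the smallest adjusted p among the 46 was 0.0859. At an unadjusted p under 0.05 there were 18, of which 15 were lower and 3 higher in KO, against 23.8% of all genes (12% lower and 11.8% higher). When limma's prior variance was allowed to follow signal intensity, an alternative here called the intensity trend, 13 genes passed, 12 lower and 1 higher, which is 26.1% and 2.17% of the 46. Over all genes 4.12% passed lower and 5.44% higher (9.56% in all). Of these 13, each passed in 2 or 3 of 16 alternatives, so the sections below give both adjusted p-values. Their adjusted p over the 16 alternatives ran from 0.00289 to 0.977. In RNA of a bulk population, fewer cells in cycle and less of a transcript in each cell cannot be told apart.

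**Figure D1:**
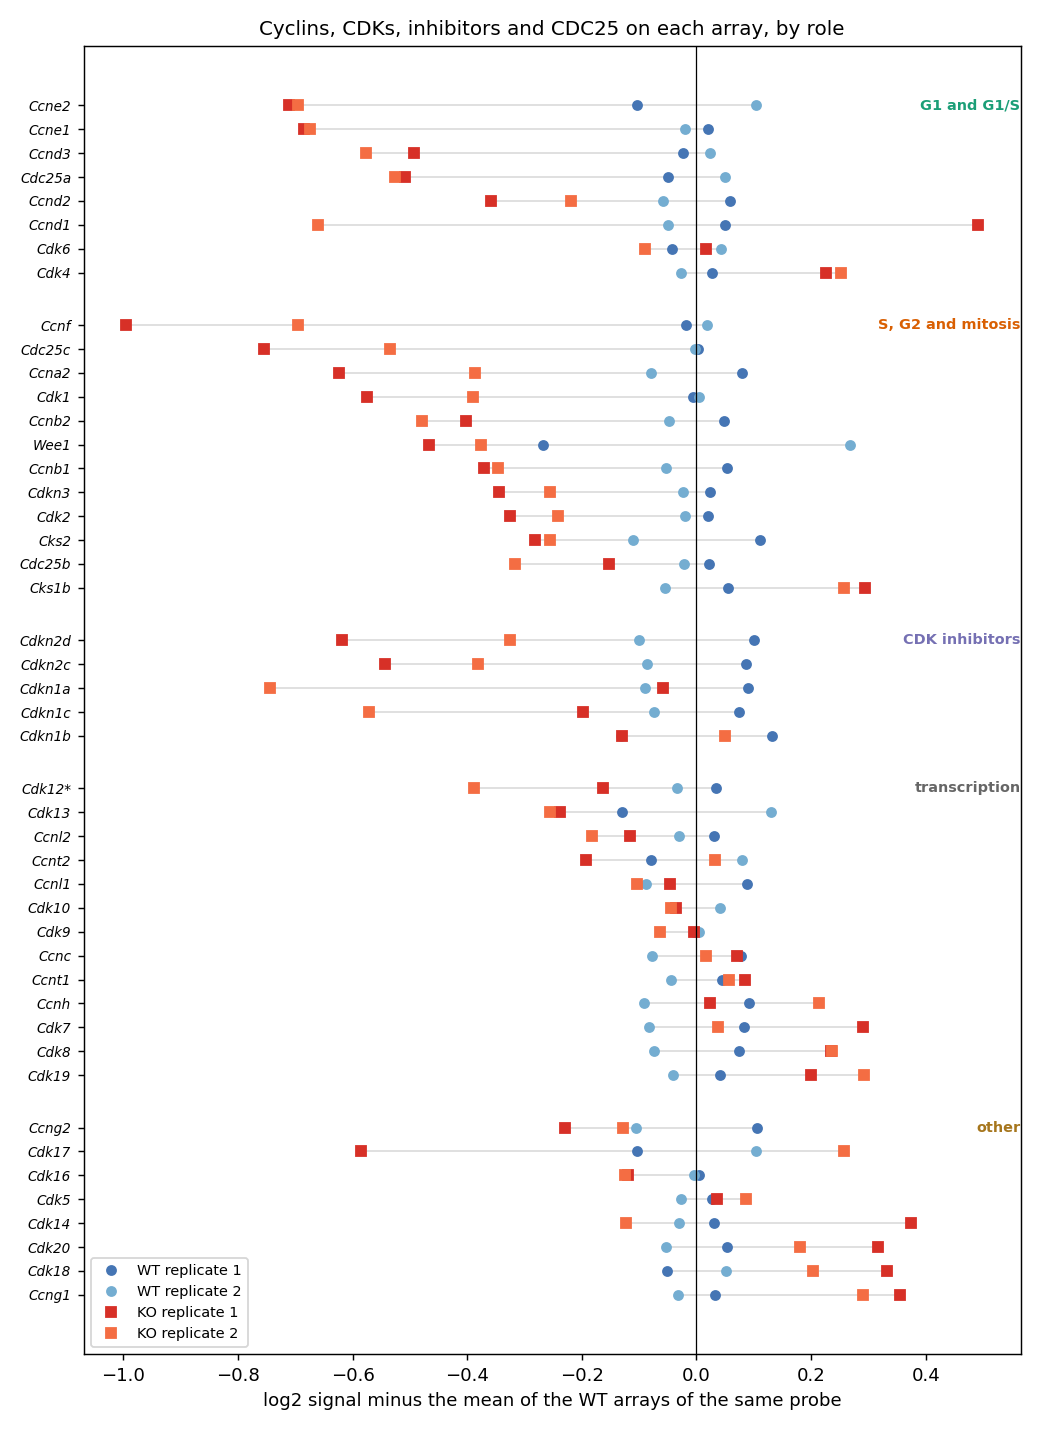
Value of each tested gene on each of the 4 arrays, on the log2 scale minus the WT mean of the same probe, grouped by role; Cdk12 with an asterisk is drawn from its brightest other probe. In the groups of G1 and of S, G2 and mitosis most KO points lie to the left of both WT points, and in the transcriptional group they lie around them.

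In G1, the 2 E-type cyclins, the D-type cyclin Ccnd3 and the phosphatase Cdc25a were lower in KO. Ccne1, which activates Cdk2 at the entry into S phase, lay at 3.77 and 3.73 on the WT arrays and at 3.07 and 3.08 on the KO arrays. Its difference was -0.68 ± 0.08 (SE), or 1.60-fold lower (limma adjusted p = 0.0859, and 0.00626 with the intensity trend). Both KO arrays were below both WT arrays by far more than the replicates differed, and the second probe gave -0.81. Ccne2, its close relative, lay at 0.23 and 0.43 in WT and at -0.38 and -0.37 in KO. The difference was -0.70 ± 0.11 (limma adjusted p = 0.0963, and 0.0169 with the intensity trend), and the groups did not overlap on either of its probes.

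Ccnd3, the D-type cyclin with the largest difference here, lay at 6.55 and 6.60 in WT and at 6.08 and 6.00 in KO. The difference was -0.54 ± 0.08 (limma adjusted p = 0.0963, and 0.0118 with the intensity trend). Cdc25a, which activates Cdk2 in G1 and S phase, lay at 3.18 and 3.28 in WT and at 2.72 and 2.71 in KO, a difference of -0.52 ± 0.08 (limma adjusted p = 0.0973, and 0.0134 with the intensity trend). Both genes had KO arrays within 0.1 of each other and clearly below WT. With normexp background correction over all spots, however, Ccnd3 was at -0.024 and Cdc25a at -0.092, with Ccne1 at -0.20 and Ccne2 at -0.55.

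The kinases of G1 and the other D-type cyclins were mixed. Cdk4 lay at 1.95 and 1.89 in WT and at 2.15 and 2.17 in KO, a difference of 0.24 ± 0.08 (limma adjusted p = 0.195, and 0.0836 with the intensity trend), with both KO arrays above WT. Cdk6 overlapped between genotypes, with a difference of -0.04 (95% interval -0.29 to 0.22). Ccnd2 was lower by -0.29 ± 0.10 without overlap. Ccnd1 was at -1.39 on one KO array and at -2.54 on the other, so the pair of KO arrays spanned both WT values of -1.83 and -1.93. In all, the groups did not overlap in 6 of the 8 genes, 5 lower and 1 higher (75%, against 58.6% of all genes), and 4 passed with the intensity trend, all lower (50%, against 4.12% of all genes).

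**Figure D2:**
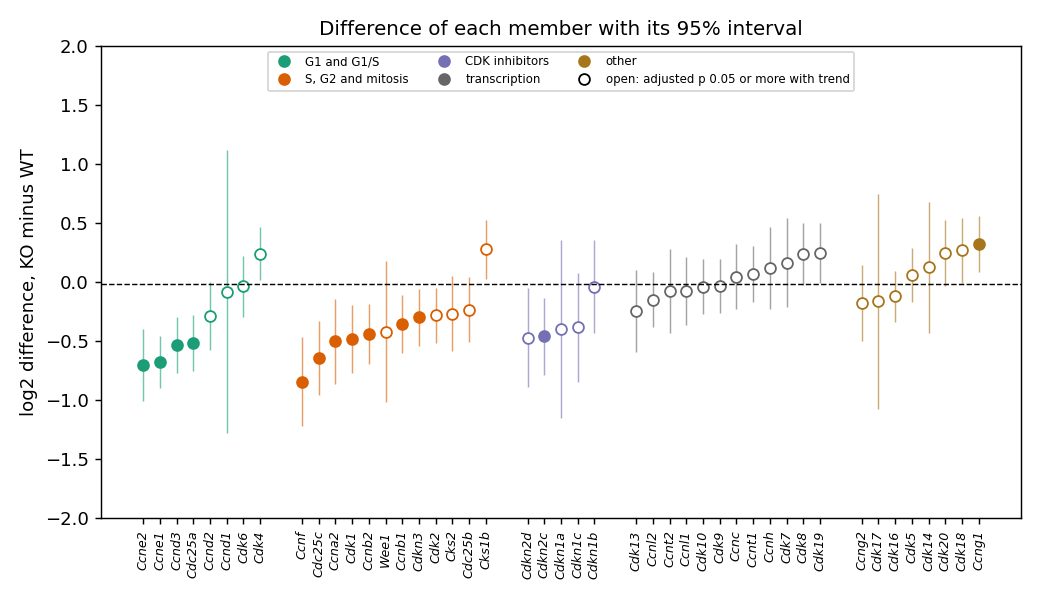
Difference between KO and WT (log2) of each tested gene except Cdk12, with bars for the 95% interval of the limma fit; filled points had an adjusted p under 0.05 with the intensity trend, and the dashed line is the median over all genes, -0.02. The filled points lie below the line with the exception of Ccng1.

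Genes of S phase, G2 and mitosis were lower in KO almost without exception: the genotypes did not overlap in any of the 12, and 11 were lower and 1, Cks1b, higher, or 91.7% and 8.33%, against 30.5% and 28% of all genes. With the intensity trend 7 passed, all lower (58.3%, against 4.12% of all genes lower and 5.44% higher). Ccnf, the F-box cyclin that marks proteins for destruction in G2, had the largest difference of the group. It lay at 2.25 and 2.29 in WT and at 1.27 and 1.57 in KO, 1.80-fold lower (-0.84 ± 0.13, limma adjusted p = 0.0963, and 0.0121 with the intensity trend). The gap between its KO arrays, larger than that between its WT arrays, was still well short of the difference.

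The mitotic kinase and its cyclins were lower by less than Ccnf. Cdk1, the kinase that drives mitosis, named Cdc2a in the scanner files, lay at 2.61 and 2.62 in WT and at 2.04 and 2.22 in KO. The difference was -0.48 ± 0.10 (limma adjusted p = 0.118, and 0.0256 with the intensity trend), and a second, dimmer probe gave -1.27. Ccnb2, a partner of Cdk1, lay at 5.45 and 5.36 in WT and at 5.0 and 4.93 in KO, a difference of -0.44 ± 0.09 (limma adjusted p = 0.115, and 0.0210 with the intensity trend). Ccnb1, its other B-type partner, lay at 1.31 and 1.21 in WT and at 0.89 and 0.92 in KO on its brightest probe, a difference of -0.36 ± 0.09 (limma adjusted p = 0.132, and 0.0441 with the intensity trend). Its other 2 probes gave -0.71 and -0.56, so all 3 had both KO arrays below WT. Ccna2, the cyclin of S phase and early mitosis, lay at 4.28 and 4.12 in WT and at 3.57 and 3.81 in KO (-0.50 ± 0.13, limma adjusted p = 0.141, and 0.0355 with the intensity trend). It was lower without overlap, though the difference was 0.037 when background was corrected with normexp over all spots, control spots included. That setting also brought Cdk1 to -0.051, Ccnb2 to -0.031 and Ccnb1 to -0.12, while Ccnf was at -0.38 and Cdc25c at -0.72.

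The phosphatases of the same stage were lower too. Cdc25c, which removes the inhibitory phosphates from Cdk1, lay at -0.96 on both WT arrays and at -1.71 and -1.49 in KO (-0.64 ± 0.11, limma adjusted p = 0.101, and 0.0314 with the intensity trend). Cdkn3, a phosphatase that acts on CDKs, lay at 4.14 and 4.09 in WT and at 3.77 and 3.86 in KO (-0.30 ± 0.09, limma adjusted p = 0.160, and 0.0466 with the intensity trend), and all 3 of its probes were lower. Cdc25b differed by -0.24 ± 0.10 and Cks2, a small CDK subunit, by -0.27 ± 0.11. The groups did not overlap in these either.

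Wee1, the kinase that opposes CDC25, lay at -3.25 and -2.71 in WT and at -3.45 and -3.36 in KO. Its WT arrays differed by more than its groups did (-0.42 ± 0.21, limma adjusted p = 0.312), so the size of this difference rests on WT replicate 2. Cdk2, the partner of cyclins E and A, lay at -1.62 and -1.66 in WT and at -1.96 and -1.88 in KO (-0.28 ± 0.08, limma adjusted p = 0.167). A second Cdk2 probe gave 0.26, with WT arrays at -4.60 and -3.02, so on that probe the groups overlapped. Cks1b, a small subunit that also helps the destruction of Cdkn1b, was higher in KO, at 4.47 and 4.37 in WT and at 4.71 and 4.68 in KO (0.28 ± 0.09, limma adjusted p = 0.183, and 0.0603 with the intensity trend).

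Promoters are shown because 3 short motifs are textbook elements of cell-cycle genes: those of Cdk1, Ccnb2 and Ccnf, which were lower in KO, of Cdc25a from the G1 group, also lower, and of Cks1b, which was higher. The sequences are the 120 bases before the start of each gene in RefSeq (GRCm38.p6), on the gene's strand, and capitals mark every match, on either strand, to CHR (TTTGAA), the CCAAT box (CCAAT) or the E2F site (TTTNNCGC).
Cdk1 (chr10:69352913-69353032, minus strand): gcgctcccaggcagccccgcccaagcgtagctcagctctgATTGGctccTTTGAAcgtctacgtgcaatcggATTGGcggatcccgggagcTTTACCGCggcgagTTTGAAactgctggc
Ccnb2 (chr9:70421555-70421674, minus strand): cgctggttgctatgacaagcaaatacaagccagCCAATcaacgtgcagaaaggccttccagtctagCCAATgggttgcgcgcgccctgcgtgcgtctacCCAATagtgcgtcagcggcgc
Ccnf (chr17:24251410-24251529, minus strand): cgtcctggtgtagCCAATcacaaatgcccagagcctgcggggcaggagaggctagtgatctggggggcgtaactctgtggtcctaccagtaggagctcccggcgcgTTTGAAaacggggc
Cdc25a (chr9:109875459-109875578, plus strand): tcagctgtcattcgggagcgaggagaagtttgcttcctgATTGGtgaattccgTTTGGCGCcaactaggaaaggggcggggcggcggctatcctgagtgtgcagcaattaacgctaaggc
Cks1b (chr3:89418292-89418411, minus strand): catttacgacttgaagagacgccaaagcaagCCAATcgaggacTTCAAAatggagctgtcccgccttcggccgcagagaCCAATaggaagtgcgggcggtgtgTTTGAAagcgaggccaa
Matches were counted in the 250 bases before the start, for the 39 of the 50 genes that the promoter table holds. In the S, G2 and mitosis group 10 of 11 promoters (90.9%) held a CCAAT box and 5 of 11 (45.5%) a CHR, against 34.5% and 16.3% of all 27025 promoters. The E2F site was in 2 of 11 (18.2%), and in 2 of the 5 of G1 and G1/S (40%), against 4.39% of all. Among the 11 promoters of the transcriptional genes 5 held a CCAAT box and 0 a CHR. Cks1b, which was higher in KO, carries 2 CHR and 2 CCAAT matches in the stretch shown, and Ccne1 and Ccnd3, which were lower, carry no match in their 250 bases. A match describes the letters only, and says nothing of a factor bound there.

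The CDK inhibitors were lower or overlapped, and none was higher without overlap. The groups did not overlap in 3 of the 5 tested, all lower. That is 60%, against 58.6% of all genes in either direction and 30.5% lower. Cdkn2c, an Ink4 inhibitor of Cdk4 and Cdk6 and the holder of a seed match in its probe, lay at 2.92 and 2.75 in WT and at 2.29 and 2.46 in KO (-0.46 ± 0.12, limma adjusted p = 0.139, and 0.0356 with the intensity trend). Cdkn2d, of the same family, lay at 4.72 and 4.52 in WT and at 4.0 and 4.29 in KO (-0.47 ± 0.15, limma adjusted p = 0.182, and 0.0593 with the intensity trend). In both the groups did not overlap, but the normexp correction over all spots put the difference at -0.049 for Cdkn2c and 0.0054 for Cdkn2d.

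Of the Cip/Kip inhibitors, Cdkn1a, the p53 target p21, lay at -0.11 and -0.28 in WT and at -0.25 and -0.94 in KO (-0.40 ± 0.27, limma adjusted p = 0.421), and its low value came from KO replicate 2 alone. Cdkn1b, the inhibitor p27 that restrains Cdk2, lay at 2.35 and 2.09 in WT and at 2.09 and 2.27 in KO. It overlapped, with a difference of -0.04 (95% interval -0.43 to 0.35) whose sign turned in 6 of 16 alternatives. Cdkn1c differed by -0.39 ± 0.16. Without KO replicate 2 the median of the 5 inhibitors was -0.20 in place of -0.40.

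Among the 13 genes that act on transcription, 0 passed with or without the intensity trend, against 9.56% and 0% of all genes. In limma 0 had an unadjusted p under 0.05, against 23.8% of all genes. The groups did not overlap in 7, 4 lower and 3 higher, or 53.8%, against 58.6% of all genes. Cdk9, the elongation kinase, differed by -0.03 (95% interval -0.26 to 0.19) and Cdk10 by -0.04 (95% interval -0.27 to 0.19). Cdk7 and its cyclin Ccnh, of the kinase that activates CDKs and polymerase II, differed by 0.16 ± 0.13 and 0.12 ± 0.12, and both overlapped. Cdk8 and Cdk19, the interchangeable kinases of the Mediator complex, were at 0.24 ± 0.09 and 0.25 ± 0.09, with both KO arrays above WT. A second Cdk8 probe above background went the other way, at -0.20, with both KO arrays below WT. Ccnc, the cyclin of Cdk8 and Cdk19, overlapped at 0.04 ± 0.10, and Cdk13, a relative of Cdk12, differed by -0.25 ± 0.12. Ccnl1 and Ccnl2, cyclins linked to splicing, were at -0.07 ± 0.10 and -0.15 ± 0.08, and Ccnt2, a partner of Cdk9, at -0.08 ± 0.13. On the brightest probes of these 3 only Ccnl2 did not overlap. The Ccnl1 probe that holds the seed match is a dimmer one, and gave -0.33 with both KO arrays below WT. Its remaining probe gave -0.16, also without overlap.

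Cdk12, an elongation kinase, gave the largest difference of the 46, and it rested on 1 spot. Its brightest probe lay at -1.48 and 8.31 on the WT arrays and at -1.83 and -1.75 on the KO arrays, a difference of -5.20 ± 3.53 (limma adjusted p = 0.428). The WT replicate 2 spot at 8.31 carries an outlier mark in the scanner file. With marked spots left out the gene is read from another probe and differed by -0.28 ± 0.11 (limma adjusted p = 0.252), and without WT replicate 2 the same probe gave -0.31. The other 4 probes of Cdk12 gave 0.04, -0.16, -0.28 and 0.13, so the 4 differed in sign.

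In the last group, which holds the neuronal kinase Cdk5, the PCTAIRE kinases and the G-type cyclins, Ccng1 was higher in KO. This cyclin, a p53 target, lay at 1.43 and 1.36 in WT and at 1.75 and 1.68 in KO (0.32 ± 0.08, limma adjusted p = 0.144, and 0.0486 with the intensity trend), and both its probes were higher. Its relative Ccng2 was at -0.18 ± 0.11. Cdk18 and Cdk20 were at 0.27 ± 0.10 and 0.25 ± 0.10 with KO above WT, Cdk5 at 0.06 ± 0.08 and Cdk16 at -0.12 ± 0.08. Cdk14, at 0.13 ± 0.20, and Cdk17, at -0.16 ± 0.32, overlapped. Cdk17 lay at -0.74 and -0.53 in WT and at -1.22 and -0.38 in KO, so its KO arrays spanned the WT values.

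A gap of over 0.5 between replicate arrays marked 5 genes: Cdk12 and Wee1 in WT, and Ccnd1, Cdk17 and Cdkn1a in KO. In each, 1 array lay apart from its replicate. Several probes above background were available for 30 genes, and in 21 of these all probes had the same sign. In 4, Ccnh, Ccnt1, Cdk12 and Cdk2, probes had opposite signs and differed by over 0.5. For Cdk12 this rests on the probe with the marked spot. The 2 probes of Ccnt1, the cyclin of Cdk9, gave 0.07 and -0.50, each without overlap. Among the probes of Ccnh, 1 that reads the strand opposite to the other 3 gave 0.56, and those 3 lay within 0.5 of each other.

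**Figure D3:**
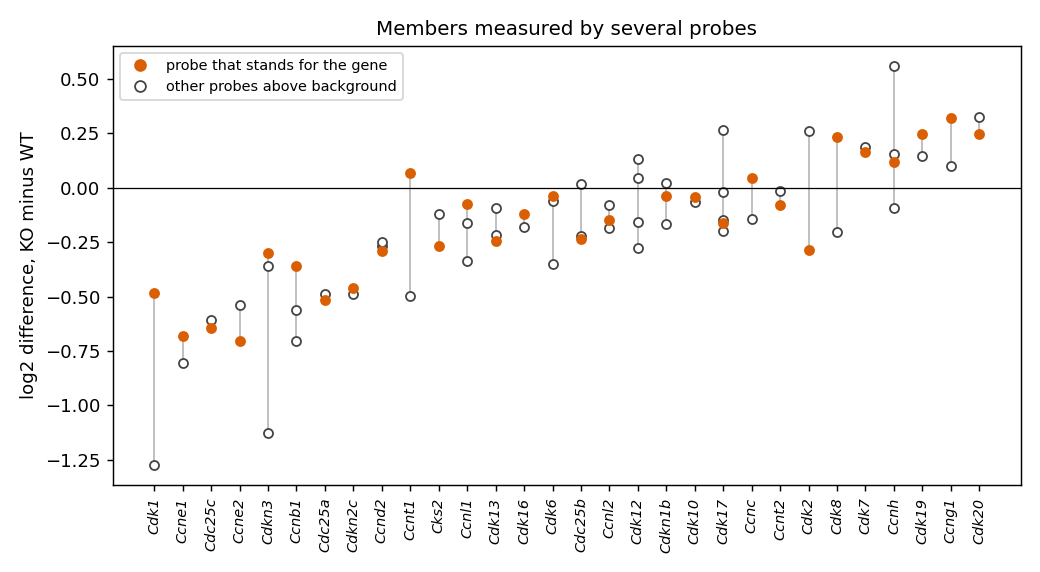
Difference between KO and WT (log2) for each probe of the 30 genes with several probes above background; orange marks the probe that stands for the gene, and the Cdk12 probe with the marked spot is left out. The probes of Ccnb1, Cdkn3, Ccne1 and Cdc25a lie together below 0, and those of Cdk2 and Ccnt1 lie on both sides.

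Other genes of the pathway were read from 3 lists that hold no member of the module. Against them stand 30.5% of all genes lower and 28% higher without overlap, and 4.12% lower and 5.44% higher past the threshold with the intensity trend. Of 19 genes of the Rb and E2F pathway, 12 were lower and 2 higher without overlap (63.2% lower, median -0.24), and 8 passed with the intensity trend, all lower. Foxm1, the activator of mitotic genes, differed by -0.95 ± 0.08, E2f7 by -0.80 ± 0.10 and Mybl2 by -0.52 ± 0.08. Of 22 genes of the ubiquitin ligases that act on cyclins and inhibitors, 11 were lower and 3 higher without overlap (50% lower, median -0.13), and 5 passed lower and 1 higher. Ube2c, the E2 enzyme of the anaphase-promoting complex, differed by -0.68 ± 0.09, its activator Cdc20 by -0.52 ± 0.08 and Skp2, which targets Cdkn1b, by -0.54 ± 0.08. Of 20 upstream kinases and checkpoint genes, 12 were lower and 2 higher without overlap (60% lower, median -0.26), and 7 passed lower and 1 higher. The mitotic kinases Plk1, Aurka and Ttk differed by -0.77 ± 0.10, -0.67 ± 0.11 and -0.71 ± 0.13. Without the intensity trend limma's adjusted p of these 9 genes ran from 0.0837 to 0.108.

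**Figure D4:**
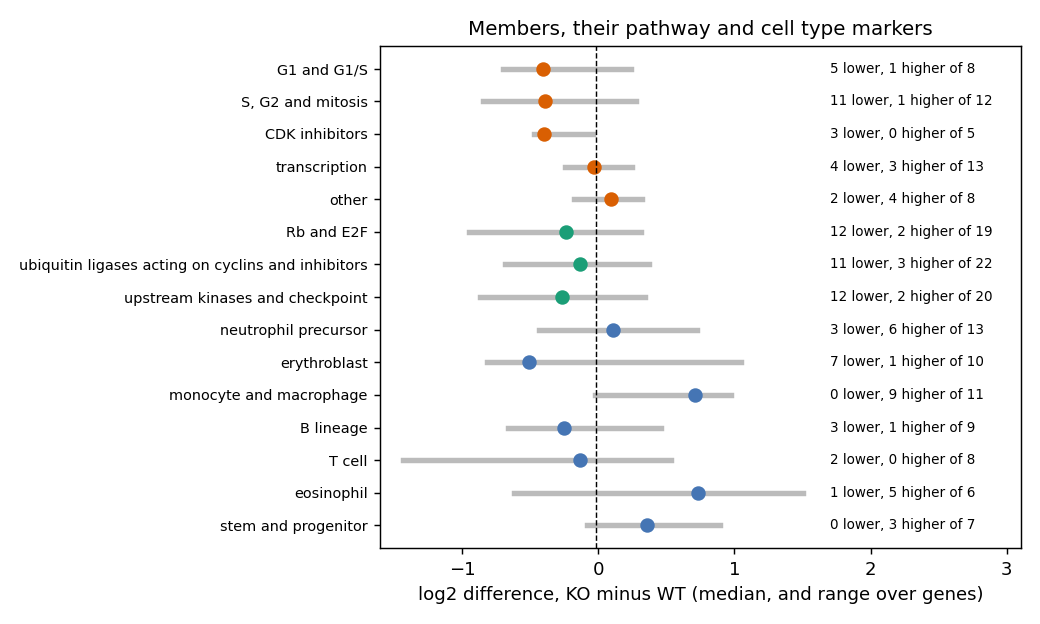
Median difference (point) and range (bar) between KO and WT, on the log2 scale, for each role, pathway list and cell marker list, with the number of genes whose arrays did not overlap; the range of the transcriptional genes is drawn without Cdk12. The cell-cycle lists and the erythroblast markers lie left of 0, and the monocyte and eosinophil markers lie right of it.

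Of 15 markers of the labelled cell, the neutrophil precursor, 13 were tested, all well above background on all 4 arrays. Their summed linear level was 5873 and 6427 on the WT arrays and 6202 and 5498 on the KO arrays, which overlapped, while single markers differed: 6 were higher and 3 lower without overlap, or 46.2% and 23.1%, against 28% and 30.5% of all genes. The azurophil granule proteases Prtn3, Ctsg and Elane were at 0.72 ± 0.10, 0.63 ± 0.09 and 0.50 ± 0.09, and passed with the intensity trend (limma adjusted p = 0.0086, 0.0106 and 0.0177; without it, 0.0896, 0.0908 and 0.108). Ltf, S100a8 and S100a9 were at -0.44 ± 0.25, -0.20 ± 0.12 and -0.20 ± 0.10. Markers of erythroblasts, which also divide, were lower as well: of the 10 tested of 16, 7 were lower and 1 higher without overlap (70% and 10%, against 30.5% and 28% of all genes, median -0.51), and the summed level was 48.9 and 47.3 on the WT arrays and 36.2 and 28.3 on the KO arrays. Among the defining erythroblast genes, Klf1, Epb4.2, Gata1 and Spna1 did not pass the filter on dim probes. Monocyte and macrophage markers were higher (11 of 11 tested, median 0.71, 9 or 81.8% higher and 0 lower without overlap, summed level 598 and 595 in WT, 681 and 606 in KO). Eosinophil markers were higher too, except Ccr3 at -0.62 ± 0.19 (6 of 9 tested, median 0.73, 5 higher and 1 lower without overlap, summed level 15.7 and 13 in WT, 22.0 and 20.5 in KO), and stem and progenitor markers summed to 30.5 and 34.4 in WT and 45.3 and 47.7 in KO. B-lineage markers summed to 9.05 and 9.17 in WT and 12.3 and 9.21 in KO. Yet 7 of the 9 tested lay below 0 (median -0.25, 3 lower and 1 higher without overlap, or 33.3% and 11.1%). T cell markers summed to 1.35 and 1.25 in WT and 0.97 and 0.68 in KO (8 tested, median -0.14, 2 lower and 0 higher without overlap, or 25% and 0%). A sum of linear levels follows its brightest genes. Those of erythroblasts, monocytes and stem cells rested largely on Hba-a1, Ly6c2 and Ly6a, which differed by -0.61 ± 0.16, 0.04 ± 0.10 and 0.46 ± 0.14. The brightest genes of the B-lineage and T cell lists were Cd79b and Cd3d, at 0.46 ± 0.13 and -1.43 ± 0.08. Ly6c2 overlapped between genotypes, so the monocyte sum says little of the other markers in its list. Each sum is compared between arrays within its own list, not with the sum of another list. What part these cells had in the differences of the module was not tested.

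All 4 arrays lay on 1 slide and share 1 scan time, so neither divides them; the day of sorting, RNA preparation and labelling was not analysed here. Before scaling, the WT arrays had a 75th percentile of processed signal of 314 and 310 and the KO arrays one of 361 and 422, and 59.6% to 62.9% of spots were well above background. The number of arrays limits the precision: 2 against 2 cannot go below p = 0.333 in a two-sided exact permutation test, so the tests of single genes lean on the variance that limma pools over genes.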

How the data were processed

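Per the file headers, Agilent Feature Extraction 10.5.1.1 read the scans. The intensity deposited for each spot is a processed signal from which background was subtracted, with no scaling from array to array. The value table that the authors deposited is on the log2 scale. Each of its columns followed log2 processed signal (Pearson's r over 41174 probes 0.9999 or higher, column medians 4.68 to 4.69), which fixes its scale, while its centring stays unstated. Probe coordinates in the files are those of mm9.

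The log2 processed signal of each spot was taken relative to its array's 75th percentile, computed without control spots, and repeat spots were averaged per probe. The brightest probe that was well above background on 2 or more arrays stood for its gene. KO was compared with WT in limma 3.58.1 (R 4.3.3) by lmFit and eBayes, with Benjamini-Hochberg adjustment over 16973 genes, a threshold of 0.05 and 1.83 prior degrees of freedom. The procedure was tested on simulated data.

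Members were matched by the whole of their name in the files (longer names that only begin so were an alternative). Other genes took RefSeq symbols (GRCm38.p6): 27042 probes were named by accession, 5499 by a current symbol and 873 by a synonym, and 7760 kept their original name. Values on all 4 arrays are given for members past the threshold, for those with an absolute difference of at least 0.4 and no overlap, for a set of central members and for those with discordant replicates. Pathway lists are represented by the 3 genes with the smallest p. Cdkn3, Ccng1 and Cks1b lie outside that rule and were added after their values were seen. The members and lists were chosen with earlier results of these data known.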

Additional observations from a re-analysis of the deposited data

How the results depend on the processing

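With normexp over all spots, which include a control spot of WT replicate 1 with a local background of 80750 against at most 45 in the non-control spots of any array, the all-gene median moved by -0.14, to -0.15. The members without overlap numbered 17 (6 lower, 11 higher), the medians were -0.041 for S, G2 and mitosis, -0.069 for G1 and -0.049 for the inhibitors, above the median of all genes by 0.114, 0.0857 and 0.106, and Ccna2, Cdkn1b and Cdkn2d turned to 0.037, 0.33 and 0.0054. Fitted without control spots, 1876 genes and 10 members passed (8 lower, 2 higher) and the G1 median was -0.35.

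The genes that passed, 0 in the fit reported, numbered 5 with median scaling, 4 with quantile normalization, 61 with the deposited values, 125 for probes above background on all 4 arrays, 1622 with the intensity trend, 1882 with a robust prior added, 817 at an adjusted p under 0.1 and 4040 at an unadjusted p under 0.05. Members that passed numbered 13, 14, 5 and 18 in the last 4. The G1 median was -0.32 with median scaling, -0.42 with quantile normalization, -0.32 with the deposited values and -0.38 over probe means. Cdkn1b was 0.024 with normexp without control spots, 0.039 with median scaling and 0.042 with deposited values, and ran from -0.172 without WT replicate 2 to 0.092 without WT replicate 1, with 0.050 without KO replicate 1.

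Leaving out each array in turn, members without overlap numbered 38 to 42 (3 arrays separate more easily). The share of all genes without overlap was not counted there or with normexp over all spots, so those counts have no background beside them. Medians ran from -0.40 to -0.35 for S, G2 and mitosis, -0.55 to -0.39 for G1 and -0.49 to -0.20 for the inhibitors. Same-numbered arrays of the genotypes did not deviate together (correlation of deviations 0.038). A single correlation cannot show whether they shared a day or a preparation. With the replicate block 0 members passed and 34 did not overlap. The intensity trend, the robust prior and the replicate block refit the same values, so no difference could change under them. Of 288 values of 18 named members under alternatives, these included, 280 kept their direction. The cause of these shifts was not tested.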
